A study of Sus scrofa with 30 samples.

Results

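A set of 11 reference transcripts had their highest levels in the mammary gland of sows in mid-gestation, and they are described here one by one. They were chosen by their measured levels in 15 samples. A transcript with an NM_ or XM_ RefSeq identifier was kept where its lowest mid-gestation value was above the highest of the other 12 values, its mid-gestation mean was at least 5 units, and that mean was at least 2 times the next highest stage mean. The rule kept 11 of 29303 reference transcripts, in a table of 61773 transcripts in all. Because the rule used these levels, the height of the mid-gestation values is given as a description, with no test.

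The study sampled mammary parenchyma from 30 multiparous half-sibling sows, Danish Landrace crossed with Yorkshire, and sequenced RNA of each gland. The labels name no treatment. The 5 stages were mid-gestation (MG, day 70 of gestation), late gestation (LG, day 110), early lactation (EL, day 2 postpartum), peak lactation (PL, day 10 postpartum) and the early dry period (W2, day 2 after weaning), with 6 sows per stage. The values are normalised transcript abundances that the authors call FPKM. They add up to about the same total in every sample, as TPM values do, and are called units here. The table gives no reads per transcript, so the depth behind a single value is unknown and its precision was judged from the spread between sows alone.

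Several features of the samples bear on all results. Within each stage a set of 3 samples gave almost the same values, with a median difference between any pair of at most 1.85% over transcripts averaging 10 units or more in that stage, against 19.6 to 59.8% between the other samples of a stage. Over the same transcripts the median gap between the average of these 3 and that of the remaining 3 was at most 0.741%, though single transcripts, above all low ones, differed by more. For this reason only the other 3 were counted, and n = 3 for every stage. The counted samples are numbered 1, 3 and 6 for MG, 1, 3 and 4 for LG, 3, 4 and 6 for EL, and 2, 3 and 6 for both PL and W2, and values are listed in that order. In the sample records, the 6 samples titled MG carry the stage name of early lactation and the 6 titled EL that of mid-gestation. The titles were followed. Under them CSN2, which encodes beta-casein, stood at 9818 ± 6351 units in MG and 46799 ± 12868 in EL (SD, n = 3), and the highest MG value (16977) was below the lowest EL value (33157). Markers of luminal epithelium were present in MG, with EPCAM at 475 to 624 units and KRT19 at a mean of 275 units. PL sample 2 stood apart, since its 20 highest transcripts took 59.9% of the total and 40.3% of its reference transcripts were listed at 0, against 25.6 to 43.0% and 19.2 to 31.1% in the other 14 samples.

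Mid-gestation is the phase in which the ducts of the gland elongate and branch and the first lobules form, before the alveoli fill the fat pad and milk secretion begins. A gene can give several transcripts through alternative promoters, splicing and polyadenylation. Short reads that fall in shared exons must be divided among them by the quantification program. A transcript can therefore stand high in a single stage through the output of its gene, through the choice among its transcripts, or through how reads were assigned.

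The number of transcripts kept by the rule in MG lay between those of the other stages. With another stage in the place of MG, the same rule kept 9 transcripts for LG, 3 for EL, 73 for PL and 40 for W2. The steps differed: 142 transcripts (0.485% of the reference transcripts) had MG values above all others, 66 of them had a mean of at least 5 units, and 11 met the whole rule. For W2 the same steps gave 574 (1.96%), 384 and 40. Stage names were also permuted 1000 times over the 15 counted samples, as the rule for these transcripts asks, and the number kept had a median of 8 and ran from 0 to 76. In 332 of the 1000 namings (33.2%) at least 11 transcripts were kept. The 11 of MG thus lay between the median and the upper quartile, 12, of the permuted namings. For the earlier steps the permuted medians were 37 transcripts without overlap and 15 that also had a mean of at least 5 units. At least as many as the 142 and 66 of MG were found in 8.8% and 9.1% of the namings.

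**Figure D1:**
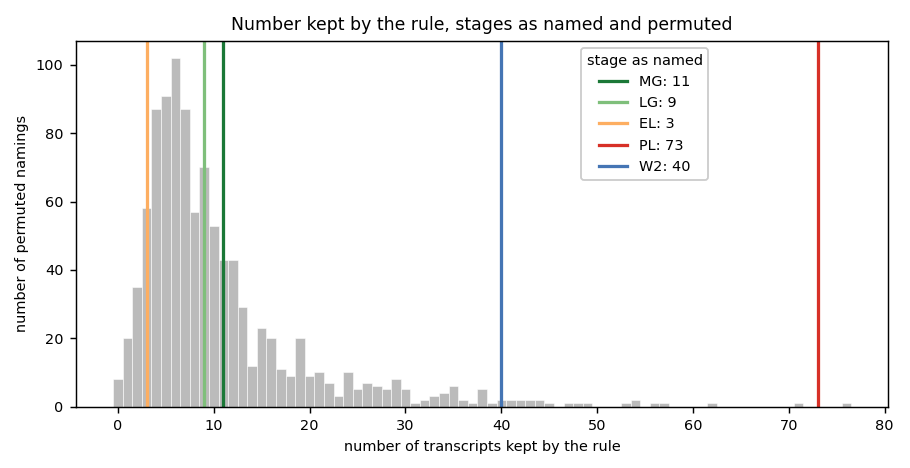
Number of reference transcripts kept by the rule (horizontal axis) in 1000 permuted namings of the stages over the 15 counted samples (grey bars, number of namings), with vertical lines for the 5 stages as named. The line for MG, at 11, stands among the tall bars, while those for W2 at 40 and PL at 73 stand in the right tail.

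The number also rested on single libraries. Without W2 sample 6 the rule kept 26 transcripts and without W2 sample 3 it kept 19. With only 2 MG samples, which leaves fewer values to clear the others, it kept 78 without sample 1, 49 without sample 3 and 77 without sample 6. After scaling by the median ratio between samples 5 transcripts were kept, 4 of them among the 11, namely those of PHB2, UACA, SGPL1 and CCL24.

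The 11 transcripts came from 11 genes on 8 chromosomes, and 10 of them were predicted models (XM_) rather than curated records (NM_). None of the genes was in any of the 16 pathway and cell type lists used below. Most were low: the MG mean was below 10 units in 7 of them and the median of the 11 was 8.60 units. The MG mean was 2.38 to 6.43 times the next stage mean, with a median of 3.39. Among the 2754 reference transcripts that also had an MG mean of at least 5 units and their highest mean in MG, the median ratio was 1.14.

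**Figure D2:**
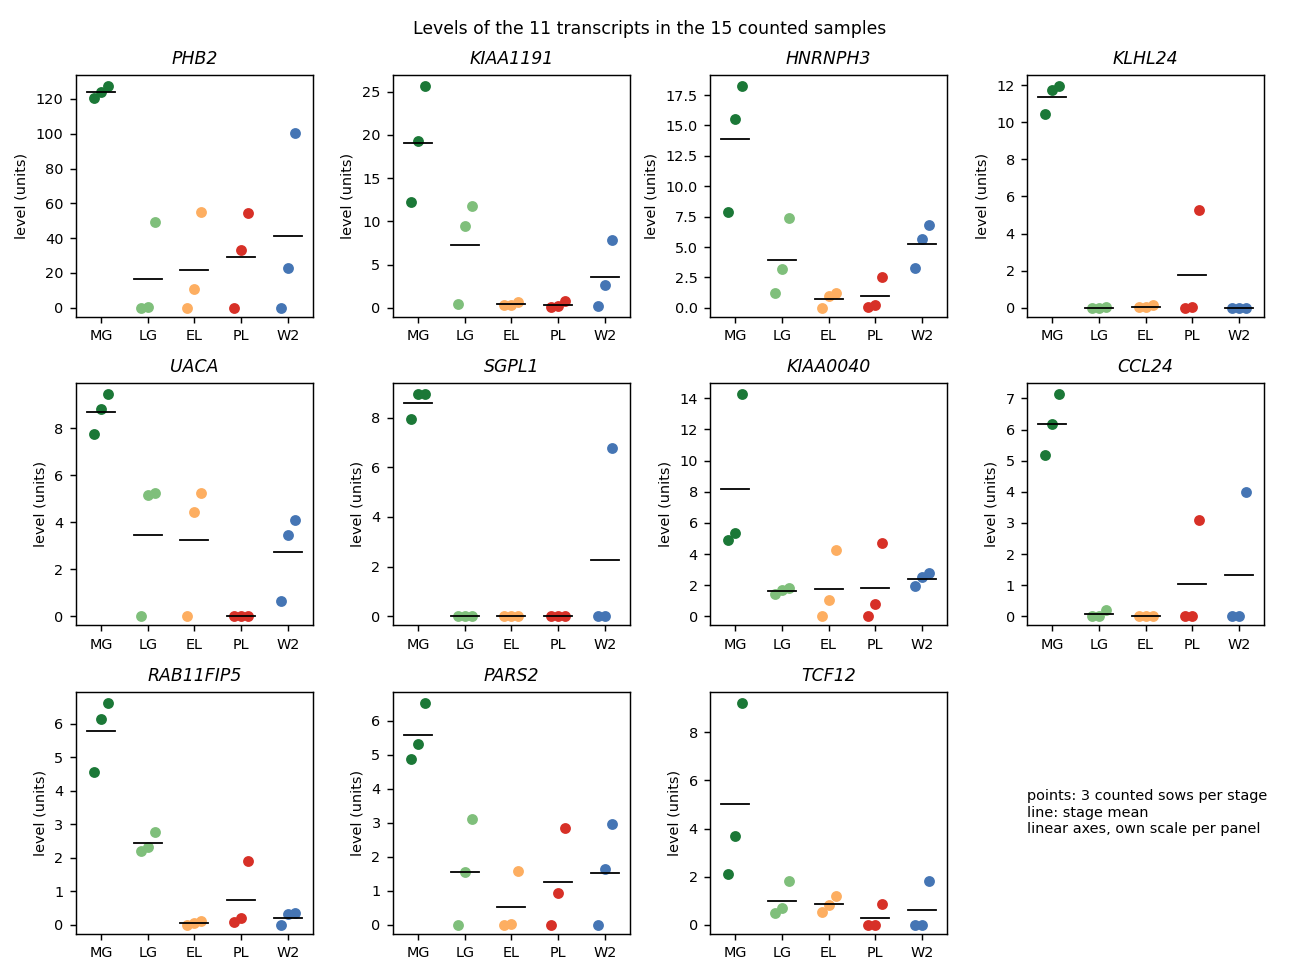
Level of each of the 11 transcripts in units (vertical axes, linear, each panel on its own scale) in the 3 counted sows of each stage (points) with the stage mean (lines). In each panel the 3 MG points lie above the other 12, by a factor that runs from 1.03 for KIAA0040 to 1.98 for KLHL24.

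PHB2 and PARS2 act in mitochondria. PHB2 encodes prohibitin 2, which forms ring complexes with prohibitin 1 in the inner mitochondrial membrane. The transcript NM_001243556.1 (Sscrofa11.1, chromosome 5, gene from 63751566 to 63756480) stood at 120, 124 and 128 units in MG, a mean of 124 ± 3.61 (SD, n = 3). It stood at 0.0433, 0.317 and 49.3 units in LG and at 0, 10.6 and 55.0 in EL. It stood at 0, 54.6 and 33.5 units in PL and at 22.9, 0 and 100.3 in W2. The 3 MG sows lay close together, whereas each of the other stages held both a sow near or at 0 and a sow of at least 49 units, and W2 sample 6 came nearest to MG. This was the highest of the 11 transcripts and the only reference transcript of its gene in the table.

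PARS2 encodes the mitochondrial prolyl-tRNA synthetase, which loads proline onto its tRNA. Its only reference transcript in the table, XM_003127972.3 (chromosome 6, 157588985 to 157595175), stood at 4.88, 6.53 and 5.32 units in MG, a mean of 5.58 ± 0.86. LG sows had 0, 1.55 and 3.12 units, EL sows 1.58, 0.0178 and 0, PL sows 0.933, 2.85 and 0 and W2 sows 1.65, 2.97 and 0. As for PHB2, each of the 4 other stages held a sow listed at 0 or near it, and the lowest MG sow was 1.56 times the highest of the other 12.

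HNRNPH3 and TCF12 act on RNA and on transcription. HNRNPH3 encodes an RNA-binding protein of the hnRNP H family, which takes part in splicing. Its transcript XM_021071946.1 (chromosome 14, 71485925 to 71498356) stood at 7.85, 18.3 and 15.6 units in MG, a mean of 13.9 ± 5.41. LG sows had 7.36, 3.17 and 1.22 units, EL sows 0.00513, 0.98 and 1.19, PL sows 0.106, 2.54 and 0.259 and W2 sows 5.69, 3.28 and 6.81. The lowest MG sow was 1.07 times the highest other sow, LG sample 1, and EL and PL lay below LG and W2 on average. The locus overlaps PBLD and RUFY2 at its ends.

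TCF12 encodes a basic helix-loop-helix transcription factor of the E protein family, which pairs with tissue-specific factors of the same class. The transcript XM_021094715.1 (chromosome 1, 114682299 to 115056363) stood at 3.68, 9.23 and 2.11 units in MG, a mean of 5.00 ± 3.74. LG sows had 0.694, 1.83 and 0.508 units, EL sows 0.519, 0.83 and 1.22, PL sows 0, 0.869 and 0 and W2 sows 0, 0 and 1.81. MG sample 3 alone carried the mean past the minimum of 5 units, and the spread between the MG sows was the widest of the 11 relative to the mean. A second TCF12 transcript, XM_021094704.1, had nearly the same profile, with an MG mean of 4.94 units and a highest value elsewhere of 2.24, and was not kept because its mean was below 5 and its lowest MG value, 2.21, was not above that value.

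SGPL1 and CCL24 have roles in signalling between cells. SGPL1 encodes sphingosine-1-phosphate lyase, the enzyme that irreversibly breaks down this signalling lipid. Its transcript XM_005657410.3 (chromosome 14, 73696902 to 73781830) stood at 8.94, 8.93 and 7.93 units in MG, a mean of 8.60 ± 0.58. It stood at 6.79 units in W2 sample 6 and was listed at 0 in the other 11 samples outside MG. The levels thus fell into present and absent rather than high and low. The locus overlaps PCBD1, whose transcripts in the table had a summed MG mean of 134 units.

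CCL24 encodes eotaxin-2, a chemokine that attracts eosinophils through the receptor CCR3. Its transcript XM_021085920.1 (chromosome 3, 10347397 to 10361500) stood at 6.17, 5.19 and 7.14 units in MG, a mean of 6.17 ± 0.97. Outside MG it stood at 0.198 units in LG sample 1, 3.10 in PL sample 6 and 3.99 in W2 sample 2, and was listed at 0 in the other 9 samples. The 3 MG sows were similar to each other, and the few sows above 0 elsewhere were spread over 3 stages. In tissue samples such as these, fewer cells that make a transcript and less of it per cell cannot be told apart.

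KLHL24, RAB11FIP5 and UACA encode proteins of turnover, membrane traffic and stress signalling. KLHL24 is a substrate adaptor of the cullin-3 ubiquitin ligase that is known to act on keratin 14. Its transcript XM_021069902.1 (chromosome 13, 121564833 to 121608146) stood at 12.0, 10.4 and 11.7 units in MG, a mean of 11.4 ± 0.83. It stood at 5.28 units in PL sample 2 and at no more than 0.141 in the other 11 samples outside MG. The ratio of the MG mean to the next stage mean, 6.43, was the highest of the 11 for values as deposited, and that next mean came almost wholly from PL sample 2. On the log2 scale, with 0.5 units added to both means, the ratio was 2.39 and became 1.5 with median ratio scaling and 1.53 with quantile normalization. Under both scalings it was below those of SGPL1 (1.79 and 1.81), CCL24 (1.74 and 1.82), TCF12 (1.66 and 1.65) and PHB2 (1.59 and 1.64). With quantile normalization it was also below that of KIAA0040 (1.56).

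RAB11FIP5 encodes an effector of the small GTPase Rab11, which steers recycling endosomes. Its transcript XM_013996029.2 (chromosome 3, 69656660 to 69699542) stood at 4.56, 6.63 and 6.15 units in MG, a mean of 5.78 ± 1.08. LG sows had 2.32, 2.20 and 2.77 units, EL sows 0, 0.112 and 0.0656, PL sows 1.92, 0.212 and 0.096 and W2 sows 0.311, 0 and 0.342. This transcript had the most graded profile: MG was above LG, and each LG sow was above each sow of EL, PL and W2.

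UACA encodes a protein with ankyrin repeats and a long coiled coil that has been tied to apoptosome function. Its transcript XM_003121767.5 (chromosome 1, 168353655 to 168453175) stood at 7.78, 9.46 and 8.81 units in MG, a mean of 8.68 ± 0.85. The LG sows had 0, 5.16 and 5.27 units, the EL sows 4.44, 0 and 5.27 and the W2 sows 4.12, 0.662 and 3.48, and the transcript was listed at 0 in all 3 PL sows. LG, EL and W2 each held 2 sows at 3 to 6 units and 1 sow below 1 unit.

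The other two genes, KIAA1191 and KIAA0040, encode proteins that are less well described. The KIAA1191 transcript XM_013994884.2 (chromosome 2, 81506407 to 81539624) stood at 25.7, 19.3 and 12.3 units in MG, a mean of 19.1 ± 6.71. LG sows had 9.50, 0.452 and 11.8 units, EL sows 0.27, 0.337 and 0.632, PL sows 0.128, 0.838 and 0.166 and W2 sows 0.16, 7.79 and 2.58. All 6 sows of the lactation stages lay below 1 unit, and the lowest MG sow was only 1.04 times LG sample 4. The KIAA0040 transcript XM_013989639.2 (chromosome 9, 117253805 to 117288348) stood at 5.34, 4.88 and 14.3 units in MG, a mean of 8.16 ± 5.29. LG sows had 1.69, 1.79 and 1.43 units, EL sows 4.24, 1.08 and 0, PL sows 0, 0.777 and 4.73 and W2 sows 2.54, 2.77 and 1.92. Here MG sample 6 set the mean, and the other 2 MG sows were close to PL sample 6.

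Beside the ratio of 2, the members just inside were RAB11FIP5 at 2.38, UACA at 2.50 and KIAA1191 at 2.63. Just outside stood DDX24 (XM_021099653.1) just below 2, with an MG mean of 37.8 units against 18.9 in the next stage, CXCL9 (NM_001114289.2) at 1.97 and TPRG1L (NM_001244356.1) at 1.96. Beside the MG mean of 5 units, TCF12 at 5.00, PARS2 at 5.58 and RAB11FIP5 at 5.78 stood just inside. DAPK1 (XM_021064614.1) at 4.78, PHF8 (XM_021080705.1) at 4.77 and ADGRL2 (XM_021096417.1) at 4.70 stood just outside.

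Values of exactly 0 were frequent outside MG. Of the 132 values of the 11 transcripts in the other 12 samples, 44 (33.3%) were listed at 0, and 9 of the 11 transcripts had at least 1 such value. Over the 9218 reference transcripts with an MG mean of at least 5 units, 4.86% of the values in these samples were at 0, and 22.1% of the transcripts had at least 1. The rule favours low values outside MG, so the share is a description of the members. A value of 0 for a transcript of a gene that was otherwise present cannot be told apart from reads assigned to another transcript of that gene. For PHB2 and PARS2 a value of 0 cannot be told apart from reads assigned to a transcript assembled by the authors, which carries no gene name.

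The other transcripts of the same genes were not used by the rule. Of the 11 genes, 9 had at least 1 further reference transcript in the table, against 62.4% of the transcripts with an MG mean of at least 5 units. When all reference transcripts of a gene were summed, the sum met the whole rule for PHB2 and PARS2 and for none of the other 9. PHB2 and PARS2 have no other reference transcript there, so the sum is the kept transcript itself and this outcome was fixed in advance. The sum was still highest in MG on average for 4 of those 9, namely HNRNPH3, UACA, CCL24 and TCF12. For KIAA1191, KLHL24, SGPL1, KIAA0040 and RAB11FIP5 the sum was highest in W2. Transcripts assembled by the authors carry no gene name in the table and are not in these sums.

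In KLHL24 the chosen transcript and the others of the gene differed in which stages they were high. In all 3 MG sows its 7 other transcripts were listed at 0, so the chosen transcript made up 100% of the sum, although in the 3 MG samples not counted the others summed to 0.520 to 2.63 units. In LG the other transcripts summed to 15.2, 13.7 and 16.4 units and in W2 to 17.7, 16.4 and 14.0, while the chosen transcript was near 0. In lactation the sows differed widely: the others summed to 13.3, 0.0203 and 0 units in EL and to 0, 1.22 and 19.1 in PL, and in EL samples 4 and 6 the sum of all reference transcripts was near 0. In PL sample 2 the chosen transcript was the only reference transcript of the gene above 0, at 5.28 units. The gene sum was 11.4 ± 0.83 units in MG, below 15.1 ± 1.37 in LG and 16.0 ± 1.89 in W2, and its means in EL (4.49 ± 7.62) and PL (8.54 ± 9.38) were below MG with spreads wider than the difference.

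In SGPL1 the chosen transcript held 36.9 ± 1.31% of the sum in MG. The other transcripts stood at 15.2, 14.5 and 14.4 units in MG and at 26.7, 25.4 and 21.0 in LG. The sums were 23.3 ± 0.93 units in MG, 24.4 ± 2.98 in LG and 24.5 ± 0.99 in W2, which differ by less than the spread between the LG sows. In KIAA1191 the chosen transcript held 23.3 ± 6.15% of the sum in MG and 3.96 ± 4.60% in W2, whereas the sum was 80.7 ± 9.36 units in MG and 90.2 ± 7.49 in W2.

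HNRNPH3 had the gene sum most raised in MG among the 9, at 59.5 ± 7.36 units, against 43.3 ± 22.0 in W2 and 33.8 ± 19.0 in LG. The MG sows ran from 53.4 to 67.6 units and overlapped the highest other sow at 60.8. For CCL24 the sum was 10.3 ± 1.72 units in MG and 8.37 ± 6.24 in W2, and its curated transcript NM_001161434.1 reached 15.5 in a W2 sow. For UACA the sums were 16.1 ± 0.79 units in MG and 13.7 ± 4.10 in W2, and for TCF12 they were 20.6 ± 2.59 and 18.1 ± 3.59. In each of these 4 genes the MG sums overlapped those of other stages.

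**Figure D3:**
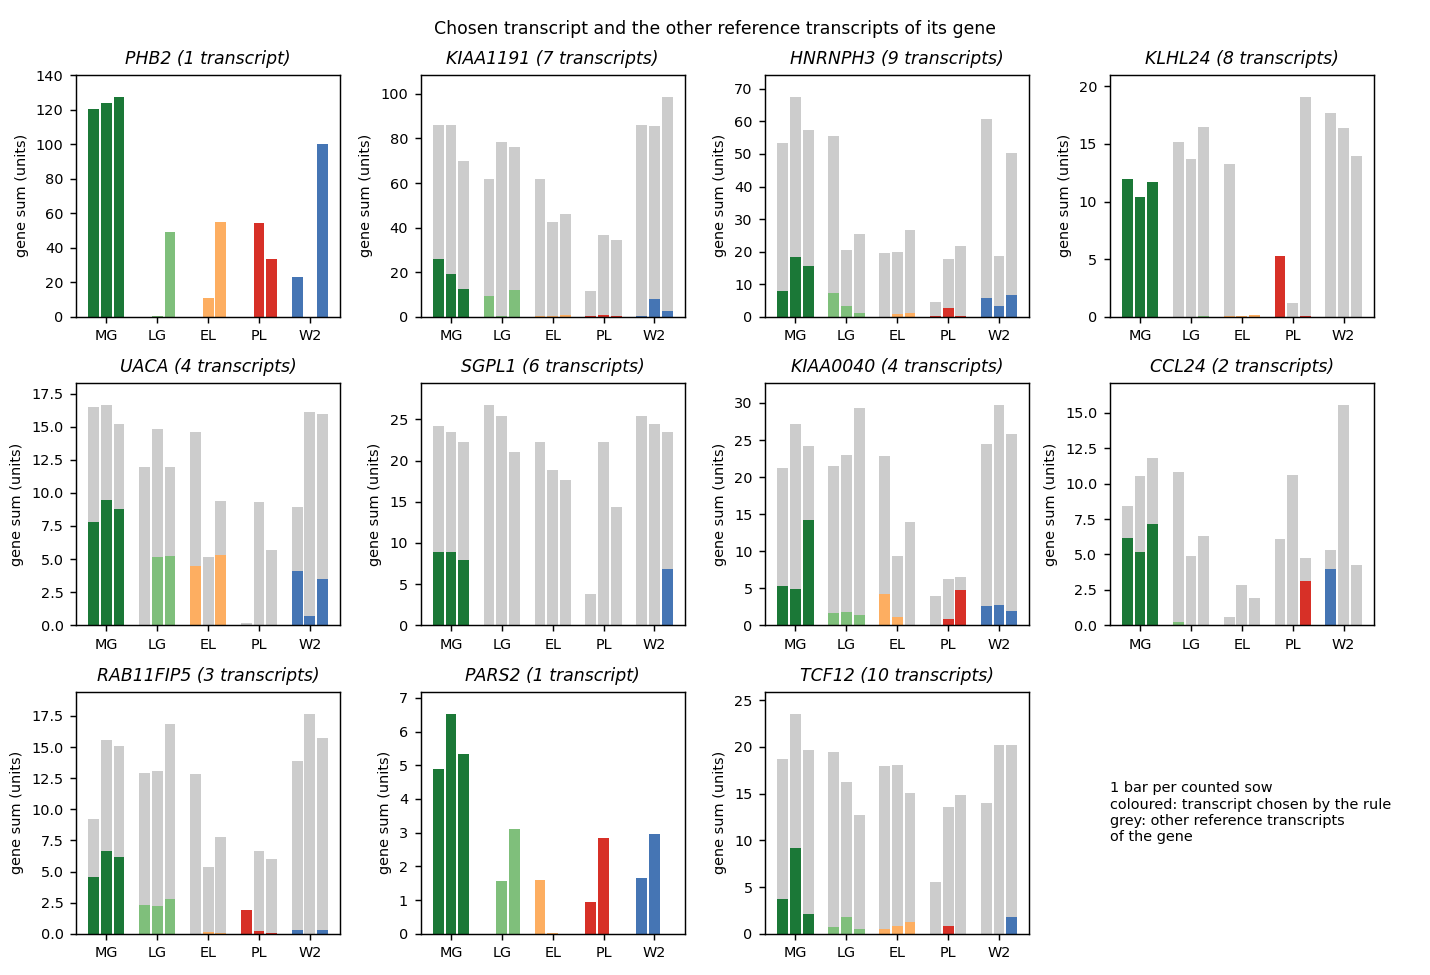
Sum of the reference transcripts of each gene in units (vertical axes, from 0, each panel on its own scale), with 1 bar per counted sow, split into the chosen transcript (coloured by stage) and the other reference transcripts (grey). For KLHL24 the MG bars are fully coloured and the LG and W2 bars nearly all grey, while PHB2 and PARS2 have a single transcript and no grey part.

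Where the members stood outside MG was not set by the rule, apart from the ceiling it put on those values. The next highest stage was LG for 5 transcripts, W2 for 5 and PL for 1, and it was EL for none. Among the 2754 transcripts with an MG mean of at least 5 units and their highest mean in MG, the next stage was W2 in 56.9%, LG in 24.1%, EL in 13.3% and PL in 5.63%. The lowest stage was EL for 4 transcripts, PL for 3, LG for 2 and W2 for 1, and for SGPL1 the 3 stages LG, EL and PL tied at 0. Among the 2754, PL alone was lowest in 62.6% and EL alone in 18.4%, with ties in 1.82%. With 11 transcripts these shares are counts only and were not tested.

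The 6 comparisons that do not hold MG were tested with limma over all 61773 transcripts, and a call needed an adjusted p below 0.05 together with a log2 fold change of 2 or more in either direction. No member was called in any of them. The share of all transcripts called was 0.0178% in EL vs LG, 1.09% in PL vs LG, 0.0324% in W2 vs LG, 0.408% in PL vs EL, 0.0631% in W2 vs EL and 2.84% in W2 vs PL, so with 11 members a count of 0 is near the background in each. At an unadjusted p below 0.05, limma gave 3, 4, 1, 1, 1 and 2 of the 11 members in the same order, against 4.91, 15.5, 5.75, 9.90, 11.4 and 22.3% of all transcripts. In EL vs LG and PL vs LG all of these were lower in lactation, and in W2 vs EL and W2 vs PL all were higher in W2. All transcripts together shifted the same way, with median log2 fold changes of -0.14, -0.31, 0.31 and 0.49 in these comparisons. The medians of the 11 members were -0.16, -0.51, 0.89 and 0.25.

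The unadjusted results came from HNRNPH3, UACA, KIAA1191 and RAB11FIP5. The RAB11FIP5 transcript had a log2 fold change of -2.39 (SE 0.49) in EL vs LG with a limma adjusted p of 0.35, and -1.53 (SE 0.49) in PL vs LG with an adjusted p of 0.14. Without PL sample 2, the library that stood apart, it was called in both, with log2 fold changes of -2.39 (SE 0.31) and -2.16 (SE 0.35). That setting called 17 of all transcripts in EL vs LG and 760 in PL vs LG. The HNRNPH3 transcript had a log2 fold change of 2.31 (SE 0.72) in W2 vs PL with a limma adjusted p of 0.071, and 2.36 (SE 0.72) in W2 vs EL with an adjusted p of 0.28. Without PL sample 3 it was called in W2 vs PL, with a log2 fold change of 3.03 (SE 0.69), where 2203 of all transcripts were called. The UACA transcript had a log2 fold change of 2.47 (SE 1.01) in W2 vs PL with a limma adjusted p of 0.17, and that of KIAA1191 had -2.57 (SE 0.96) in PL vs LG with an adjusted p of 0.21. PHB2, the transcript with the highest level, had SEs of 2.38 on the log2 scale in these comparisons, since its values within each stage ran from near 0 up to 49.3 units or more.

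To place the 11 transcripts among other genes of the gland, gene sums in MG were compared with the mean of the other 4 stages by limma for 13454 genes. At an adjusted p below 0.05, 12 genes (0.0892%) were higher in MG and 3 (0.0223%) lower, and 2540 (18.9%) had an unadjusted p below 0.05, of which 2375 were higher in MG. The median log2 difference over all genes was 0.28 and became 0.04 with median ratio scaling and 0.02 with quantile normalization, so lists are read against that shift. Of 338 genes in the 16 lists, 282 were tested and 1 was called. This was FCGR3A, which encodes an Fc gamma receptor of macrophages and natural killer cells. It stood at 63.8, 85.8 and 84.6 units in MG and 60.6, 68.5 and 64.5 in W2. The LG sows had 53.0, 43.8 and 62.7 units, the EL sows 40.6, 27.7 and 36.3, and the PL sows 15.6, 23.4 and 20.2. The MG and W2 sows overlapped, while LG, EL and PL lay below MG. The log2 difference was 0.98 (SE 0.16) with a limma adjusted p of 0.047. This adjusted p ran from 0.024 to 0.29 when each counted sample was left out in turn, the highest without MG sample 3. It was 0.026 with quantile normalization and 0.25 with a replicate block. The limma adjusted p was 2.4e-10 with all 6 samples and 0.00013 with the near-identical ones counted once. Both of these settings add values close to the mean of the counted sows and so narrow the spread by construction.

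The genes of cell division and DNA replication had the highest list median in MG for values as deposited, 0.93 on the log2 scale (0.72 with median ratio scaling, where the 7 skin genes stood higher at 0.74), and 33 of 46 had an unadjusted p below 0.05, all higher in MG, though none was called by limma. CCNB2, a mitotic cyclin, had an MG mean of 10.9 ± 0.90 units, with 7.07 ± 0.87 for LG, 5.56 ± 0.45 for EL, 1.08 ± 0.46 for PL and 9.92 ± 2.34 for W2 (limma adjusted p = 0.057 for MG against the rest). Its MG and W2 means differed by less than the spread of the W2 sows, and TOP2A, the topoisomerase of dividing cells, was much the same, with 23.1 ± 1.88 units in MG and 22.1 ± 7.51 in W2. The level in PL was the lowest for both. Without PL sample 2, 23 of the 46 genes of this list and 309 of all genes were called. Of the 46 genes, 43 had a log2 difference above 0, but 2 well-known genes of this list did not follow CCNB2 and TOP2A. MKI67 had its highest mean in EL, 2.29 ± 1.56 units, against 1.296 ± 0.984 in MG. E2F1 was near 0 in MG and W2 (means of 0.0506 and 0.0932 units) and stood at 4.05 ± 3.55 in LG. Its log2 difference for MG against the rest was -1.52 (SE 0.798). None of the 11 transcripts belonged to a gene of this list, and CCNB2, TOP2A, MKI67 and E2F1 were named after their values were seen.

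The collagens and matrix genes, which form the stroma around growing ducts, had a median of 0.48, with 19 of 52 at an unadjusted p below 0.05, and these became 0.21 with 4 of 52 under median ratio scaling and 0.22 with 7 of 52 under quantile normalization. Over all 13454 genes this number fell as well, from 2540 to 1402 with median ratio scaling and 1496 with quantile normalization. The counts of each list are read against that fall. Genes of hormone and ductal development had a median of 0.29 with 9 of 50, which became 0.12 with 4 and 0.05 with 5. T and B lymphocyte genes had a median of 0.69 with 7 of 15, which became 0.45 with 3 and 0.39 with 2. Macrophage and myeloid genes had a median of 0.65 with 8 of 14, which became 0.39 with 8 and 0.39 with 9. Milk protein genes had a median of -1.05 with 6 of 10, which became -1.33 with 8 and -0.69 with 6. The part of immune cells in the CCL24 levels was not tested.

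Among the other cell types that the parenchyma can hold, fibroblast genes had a median of 0.53 (3 of 11 at an unadjusted p below 0.05), endothelial genes 0.32 (0 of 17), nerve genes 0.31 (1 of 7), pericyte genes 0.27 (3 of 11), adipocyte genes -0.40 (3 of 15), erythrocyte genes -0.10 (0 of 4), skeletal muscle genes -0.57 (0 of 2) and skin genes 0.82 (0 of 7). Luminal genes had a median of 0.18 (0 of 10) and basal genes 0.13 (0 of 14), both below the median of all genes, and these 2 medians turned negative under both scalings, as did that of the pericyte genes under quantile normalization.

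**Figure D4:**
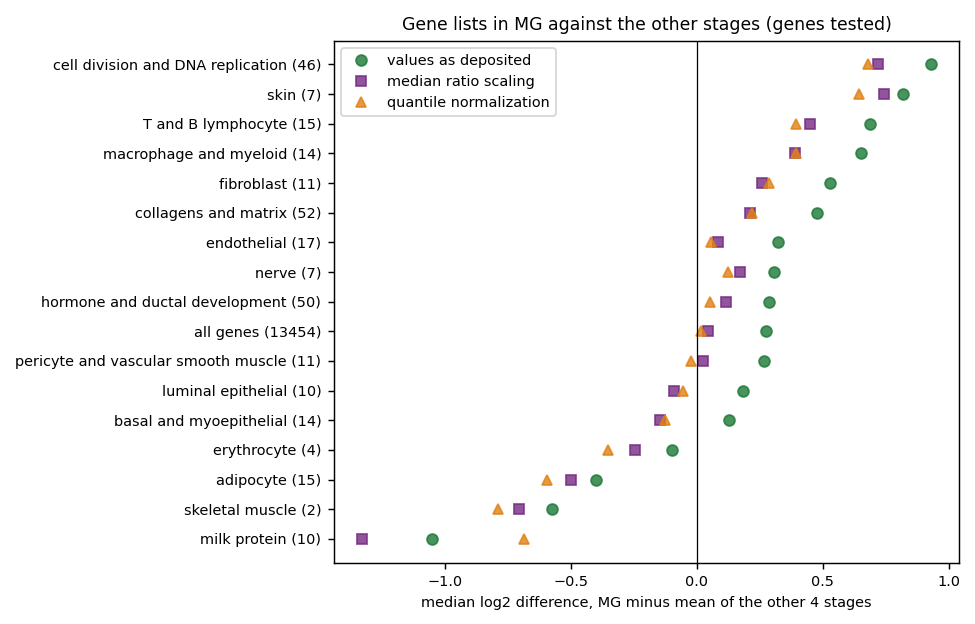
Median log2 difference between MG and the mean of the other 4 stages (horizontal axis) for each gene list, with the number of genes tested in brackets, for values as deposited (circles), median ratio scaling (squares) and quantile normalization (triangles). The cell division list stands at 0.93, 0.72 and 0.68 and all genes at 0.28, 0.04 and 0.02, and the milk protein list lies farthest to the left for values as deposited.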

How the data were processed

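Per the submitters' processing notes and the methods, read quality was checked with FastQC. The authors used Trimmomatic for trimming, HISAT2 for alignment to Sscrofa11.1 and StringTie for assembly and quantification, keeping transcripts with at least 0.5 FPKM in at least 1 stage. They name RUVs for unwanted variation, and whether the deposited values include it is not given in the sources used here. The deposited values are called FPKM but sum like TPM and were treated as TPM, with no further scaling. The library kit is not stated to keep strand, so overlapping genes share reads.

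Samples were grouped by their titles. The 11 transcripts and the gene lists were chosen with earlier results of these data known. Named genes were all members, those just beside each threshold, and listed genes called in MG. CCNB2, TOP2A, MKI67, E2F1 and EEF1AKMT2, and the genes that check the samples, fall outside this rule and were chosen with values known. Symbols and coordinates came from RefSeq (29301 of 29303 transcripts matched). Levels were log2(value + 0.5) transformed. Tests used limma 3.58.1 (R 4.3.3) on 15 samples in a single fit, with trended variance and Benjamini-Hochberg adjustment over all features. Fold changes on this scale understate those of low transcripts. Other steps used Python 3.11.15, numpy 2.4.6 and pandas 2.3.3. The fit was tested on simulated data. Replicate numbers come from different sows. Alternatives were other thresholds, identifiers, gene sums, scalings, pseudocounts, a filter on low values, all 6 samples, near-identical samples counted once, a replicate block and each sample left out. No sequences of these transcripts were used here.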

Additional observations from a re-analysis of the deposited data

How the results depend on the processing

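With 3 sows per stage, no read counts and no replicate check on the assignment of reads to transcripts, differences at these low levels are poorly resolved. The number of transcripts kept was 34 with an MG mean of at least 2 units, 4 with at least 10, 27 with a ratio of at least 1.5, 7 with at least 3, 28 with all identifiers, 3 with gene sums, 5 with median ratio scaling and 7 with quantile normalization, and 11 to 78 with each counted sample left out. Of the 7 kept after quantile normalization, 6 were among the 11. With all 6 samples per stage, or the near-identical ones counted once, the same 11 were kept. The near-identical samples lie close to the mean of the counted ones, so this outcome was largely fixed in advance.

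Members called, 0 as reported, numbered 2 (EL vs LG), 2 (PL vs LG), 1 (PL vs EL), 1 (W2 vs EL) and 3 (W2 vs PL) with all 6 samples, and 1 (EL vs LG), 2 (PL vs LG), 1 (W2 vs EL) and 2 (W2 vs PL) with the near-identical samples counted once. In the same order, all 6 samples called 2285, 4229, 3075, 3262 and 5673 of all 61773 transcripts, against 11, 674, 252, 39 and 1754 as reported. The near-identical samples counted once called 277, 2412, 1240 and 3915 of all transcripts in the order given for them. A filter at a mean of 1 unit gave 1 in W2 vs PL, with fewer transcripts tested, of which 1980 were called. With each sample left out, 0 to 1 were called in EL vs LG, PL vs LG and W2 vs PL. Counting near-identical samples as replicates narrows the spread by construction.

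Listed genes called in MG, 1 as reported, numbered 0 with a pseudocount of 0.1, 2 with 1, 0 with the filter, 157 with all 6 samples, 96 with the near-identical ones counted once, and 0 to 31 with each sample left out, 31 without PL sample 2, 5 without PL sample 3 and 7 without PL sample 6. Over all 13454 genes, 15 were called as reported, 5775 with all 6 samples and 2680 with the near-identical ones counted once. Without PL samples 2, 3 and 6 in turn, 309, 54 and 34 of all genes were called. The cause was not tested. The replicate numbers did not pair the samples: deviations of same-numbered samples had correlations of -0.055 to 0.075 over 19 pairs. The replicate block gave 0 listed genes called and changed no count of members called. The MG level over the next stage kept its direction in all 209 alternative values for the members, with log2 ratios of 0.68 to 4.40. The rule had put every counted MG value above the others, so this direction was largely fixed in advance. Of these values, 27 moved by at least the SD of the counted MG sows on the log2 scale.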

Other observations

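One gene without a kept transcript met the whole rule on gene sums. EEF1AKMT2, named after its values were seen, encodes a lysine methyltransferase of the elongation factor eEF1A and had a gene sum of 12.6 ± 2.38 units in MG (SD, n = 3), from 10.6 to 15.2, against a highest value of 8.51 in any other sow and 5.63 for the next stage mean. The ratio of 2.24 is smaller than those of PHB2 at 3.02 and PARS2 at 3.58. Among the 29047 transcripts that the authors assembled, 17 met the same rule, and the table gives no gene for them. The 3 near-identical MG samples, which were not counted, stood at 5.06 to 5.41 units for the TCF12 transcript, whose counted MG sows ran from 2.11 to 9.23.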
